A study of Mus musculus with 6 samples.

Results

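The unfolded protein response (UPR) was followed through 10 genes chosen by name: Atf4, Ddit3, Trib3, Chac1, Atf6, Xbp1, Hspa5, Hsp90b1, Pdia4 and Herpud1. They are 10 of the 41386 genes in a table of RNA-seq counts from mouse hippocampus, and all 10 were among the 18569 genes with enough counts to be tested. The table holds 6 libraries from C57BL/6 mice (C57BL/6J in the study's methods) 56 days old. In the 3 ischemia/reperfusion (I/R) libraries the middle cerebral artery was blocked for 1.5 h with a filament (MCAO) and the brain was then reperfused for 24 h. In the 3 sham libraries the mice had the same surgery without the filament. Per the study's methods the mice were male, the left artery was blocked, the hippocampus of that side was taken and each library pooled 3 hippocampi, so replicate error here means the variation from pool to pool.

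The endoplasmic reticulum (ER) folds proteins that are secreted or placed in membranes, and the UPR raises its folding capacity when unfolded protein builds up. It has 3 sensors. PERK (gene Eif2ak3) phosphorylates the translation factor eIF2α, which slows protein synthesis and favours translation of the transcription factor ATF4. IRE1 (gene Ern1) splices Xbp1 mRNA into its active form, and ATF6 moves to the Golgi, where proteases release its transcription factor part. Other kinases that sense amino acid shortage, viral RNA or heme also phosphorylate eIF2α, and this wider path is called the integrated stress response. PERK is known to shut down protein synthesis in neurons when blood flow returns after ischemia.

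Of the 10 UPR genes, 8 rose after I/R (Atf4, Ddit3, Trib3, Chac1, Xbp1, Hspa5, Hsp90b1 and Herpud1), 0 fell and 2 did not pass the test (Atf6 and Pdia4). A gene is said to rise or fall at an adjusted p under 0.05 in edgeR's quasi-likelihood test, adjusted by Benjamini and Hochberg's method across all genes tested, and a fold change over 1.2. By the same rule 41.8% of all genes tested changed, 21.8% rising and 19.9% falling. The median log2 fold change was 0.84 over the 10 genes and 0.03 over all genes tested. In 9 of the 10 genes, all but Atf6, the 3 I/R libraries lay above the 3 sham libraries, which was so for 29.3% of all genes tested. With a fold change over 2, 5 of the 10 rose (Trib3, Chac1, Ddit3, Hspa5 and Atf4), against 10.2% of all genes tested. Levels are given below as CPM, counts relative to a library size that edgeR scales by TMM, a trimmed mean that places the bulk of genes near no change. Each adjusted p is from edgeR unless another tool is named.

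**Figure D1:**
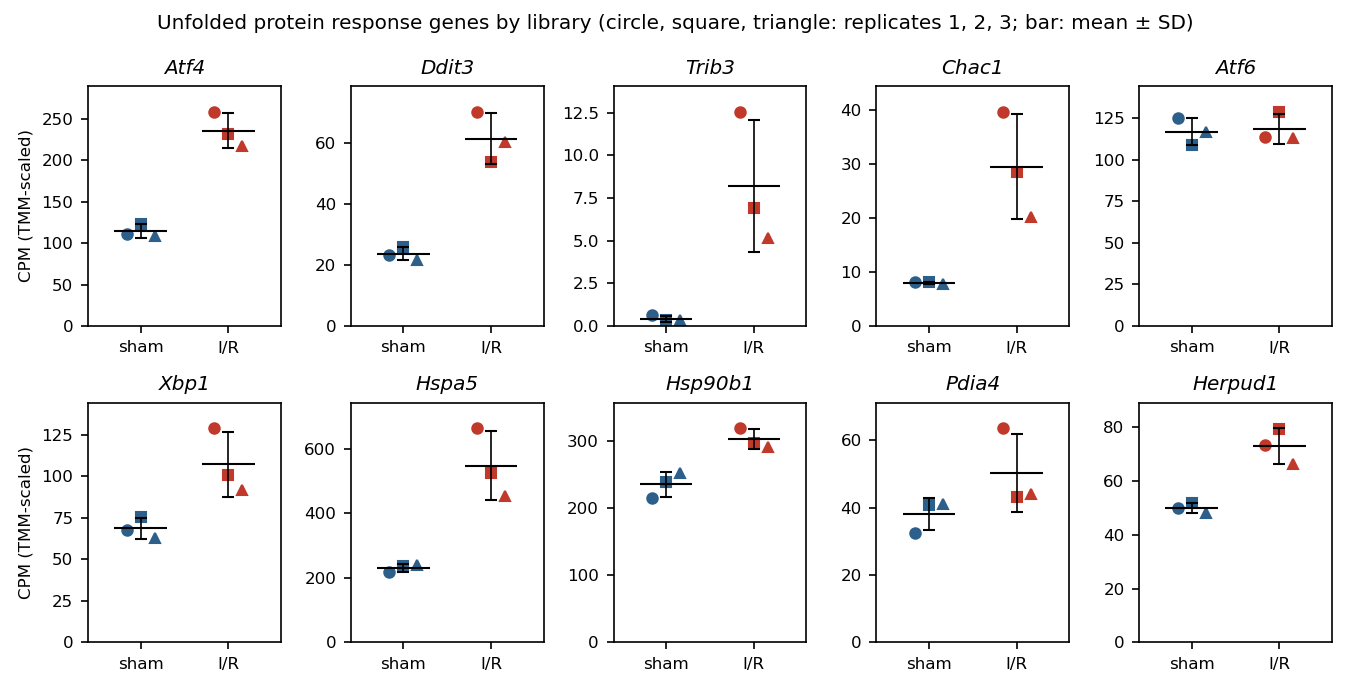
CPM (TMM-scaled) of the 10 UPR genes in each sham (blue) and I/R (red) library, with the symbol shape giving the replicate and the black bars the mean ± SD of 3 libraries. The I/R points lie above the sham points in 9 panels and mix with them in that of Atf6.

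Known DNA elements of the pathway were looked for in the promoters of the UPR genes, taken here as 250 bases before and 50 bases after the transcript start in RefSeq (build GRCm38.p6, which is not the build of the count table). A promoter was found by symbol for 9 of the 10 genes, all but Atf6, and for 98 of the 125 genes that these 10 and the pathway lists below hold. The ER stress response element (ERSE), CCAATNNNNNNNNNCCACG, is bound by ATF6 together with NF-Y. It was in 39 of 32851 promoters (0.119%), among them those of Hspa5 and Hsp90b1. The shorter ERSE-II, ATTGG and CCACG with 1 base between them, was searched after the data had been seen and was in 12 promoters (0.0365%), among them that of Herpud1. The C/EBP-ATF composite site, TGATGNAA, which ATF4 and CHOP can bind, was in 3.97% of promoters, among them those of Trib3, Chac1 and Herpud1. The sequences below, each 5′ to 3′ on the strand of the gene and ending at the base before the start, are shown because they hold these matches, which are in capitals. Both strands were searched, so a match on the other strand appears as its reverse complement.
Hspa5 (chr2:34771840-34772089, plus strand): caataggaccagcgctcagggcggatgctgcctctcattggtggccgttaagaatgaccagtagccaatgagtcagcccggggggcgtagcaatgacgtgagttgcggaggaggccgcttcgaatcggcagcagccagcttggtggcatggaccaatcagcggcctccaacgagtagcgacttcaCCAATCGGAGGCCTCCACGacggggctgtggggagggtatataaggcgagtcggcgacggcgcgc
Hsp90b1 (chr10:86705445-86705694, minus strand): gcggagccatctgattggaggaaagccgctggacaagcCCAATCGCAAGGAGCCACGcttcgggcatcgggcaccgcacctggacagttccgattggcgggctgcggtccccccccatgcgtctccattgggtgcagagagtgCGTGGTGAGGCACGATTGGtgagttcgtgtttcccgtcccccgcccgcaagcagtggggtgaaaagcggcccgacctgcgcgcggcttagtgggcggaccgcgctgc
Herpud1 (chr8:94386179-94386428, plus strand): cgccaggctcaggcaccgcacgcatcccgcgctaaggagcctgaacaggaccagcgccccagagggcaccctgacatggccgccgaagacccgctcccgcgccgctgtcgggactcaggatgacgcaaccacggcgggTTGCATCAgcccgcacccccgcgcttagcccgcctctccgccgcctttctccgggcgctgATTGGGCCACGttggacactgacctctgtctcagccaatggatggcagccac
Chac1 (chr2:119350992-119351241, plus strand): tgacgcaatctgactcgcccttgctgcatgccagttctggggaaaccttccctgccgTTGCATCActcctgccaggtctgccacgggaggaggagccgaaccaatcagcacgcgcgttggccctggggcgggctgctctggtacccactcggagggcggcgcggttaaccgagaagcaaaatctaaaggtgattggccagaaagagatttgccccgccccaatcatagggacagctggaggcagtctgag

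The ERSE of Hspa5 lies at bases -65 to -47 from the start. Hsp90b1 has 2, at -212 to -194 and, on the other strand, at -107 to -89. In Herpud1 the ERSE-II is at -52 to -42 and the composite site, on the other strand, at -112 to -105. The composite site of Chac1 is at -193 to -186 on the other strand, and that of Trib3 is after the start, at 15 to 22. No exact match to the ERSE, ERSE-II or composite site was found in the windows of Atf4, Ddit3, Xbp1 and Pdia4. Only exact matches inside the windows were counted for any gene, so imperfect or more distant sites are missed. The UPR element TGACGTGG (0.676% of promoters) and the cAMP response element TGACGTCA (1.79%) were found in 0 of the 9 genes. The second part of the ERSE alone, CCACG, was in 32.8% of promoters and in 6 of the 9, and the CCAAT box was in 37.4% and in 7 of the 9. Both short motifs lie inside every ERSE, and CCACG and the reverse complement of CCAAT inside every ERSE-II. Among the 3 genes with an ERSE or ERSE-II the log2 fold changes ran from 0.36 to 1.24, and a match is a description of the sequence, not a measured binding site.

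**Figure D2:**
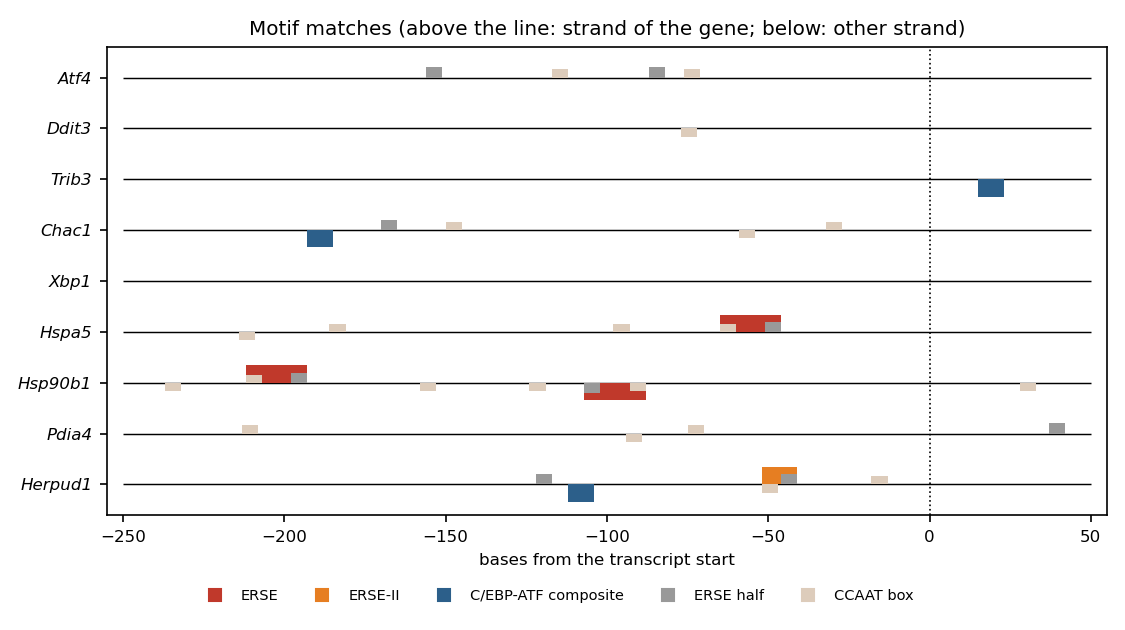
Motif matches in the promoters of 9 UPR genes (Atf6 had none in the promoter table), by distance in bases from the transcript start, with boxes above the line on the strand of the gene and below it on the other. ERSE matches (red) are in Hspa5 and Hsp90b1, the ERSE-II (orange) in Herpud1, and composite sites (blue) in Trib3, Chac1 and Herpud1.

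The 4 genes of the ATF4 branch, which PERK shares with the other eIF2α kinases, rose. PERK activity and translation of ATF4 are not seen in mRNA counts. Atf4 (chromosome 15, 77794357 to 77796713; positions in this and the next paragraphs are those of the count table, on the BALB/cJ assembly) encodes the factor that PERK signalling brings into translation. Its counts were 11771, 9241 and 8683 in I/R replicates 1 to 3, against 4329, 5025 and 3752 in sham replicates 1 to 3. The I/R libraries were all above the sham libraries, and the lowest of them still had 217 CPM against 124 CPM in the highest sham library. The level rose from 115 ± 7.95 to 236 ± 21.1 CPM (SD, n = 3 each), by 1.04 ± 0.10 (SE) on the log2 scale (edgeR, adjusted p = 0.000523).

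Ddit3 (chromosome 10, 126047933 to 126053447) encodes CHOP, a transcription factor that ATF4 induces and that promotes cell death in lasting ER stress. It had 3195, 2145 and 2410 counts after I/R against 910, 1053 and 746 after sham surgery. The libraries of the groups did not overlap, and the level rose from 23.6 ± 2.13 to 61.4 ± 8.32 CPM, by 1.38 ± 0.13 (SE) on the log2 scale (edgeR, adjusted p = 0.000385). The gene overlaps Mars on the opposite strand, and whether the strand was used in counting is not stated, so reads of the pair cannot be told apart where they overlap. Of the 50-base stretches of Ddit3 transcripts in the GENCODE M21 annotation, 1.11% were also in Mars.

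Trib3 (chromosome 2, 150928823 to 150936078) encodes a pseudokinase that CHOP and ATF4 induce and that restrains AKT and ATF4. It was nearly silent in sham, with 24, 13 and 11 counts, and had 572, 277 and 206 counts in I/R. The fold change, 19.5 (log2 4.28, SE 0.44, adjusted p of 0.000589), was the largest of the 10 genes. Its I/R libraries spread widely, from 5.15 to 12.6 CPM, and all lay above the sham libraries, at 0.32 to 0.615 CPM. On log2 of the deposited FPKM plus 1, a scale that understates the change of a gene this low, the difference was 2.73.

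Chac1 (chromosome 2, 117392281 to 117395417) encodes an enzyme that degrades glutathione and is induced by ATF4. Its counts were 1804, 1140 and 808 after I/R against 315, 328 and 268 after sham surgery. Sham libraries were close together, at 7.98 ± 0.162 CPM, whereas I/R libraries ran from 20.2 to 39.6 CPM, all higher. The rise was 1.88 ± 0.23 (SE) on the log2 scale (edgeR, adjusted p = 0.000962).

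The genes of the other transducers moved less. Xbp1 (chromosome 11, 2478876 to 2484688) encodes the factor made after IRE1 splices its mRNA. It had 5871, 4031 and 3667 counts after I/R against 2644, 3070 and 2164 after sham surgery. All I/R libraries were above all sham libraries, with the lowest I/R library at 91.7 CPM and the highest sham library at 75.5 CPM. The level rose from 68.7 ± 6.38 to 107 ± 19.4 CPM, by 0.64 ± 0.14 (SE) on the log2 scale (edgeR, adjusted p = 0.00788). Counts per gene do not separate spliced from unspliced Xbp1 mRNA.

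Atf6 (chromosome 1, 169711605 to 169873917) encodes the sensor that is cut in the Golgi. Its counts were 5166, 5153 and 4513 after I/R against 4878, 4423 and 4013 after sham surgery. The libraries of the groups mixed, with 118 ± 9.09 CPM after I/R and 117 ± 8.06 after sham surgery. The log2 fold change was 0.02 with a 95% interval from -0.20 to 0.24 (adjusted p of 0.882). With library size alone as the scale, which moves the median of all genes from 0.03 to 0.28, the log2 fold change of Atf6 was 0.27 and it rose (adjusted p of 0.0405). Activation of ATF6 by cutting is not seen in mRNA counts.

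Among the chaperones and folding enzymes of the 10 genes, Hspa5 rose most. Hspa5 (chromosome 2, 32070642 to 32076219) encodes BiP, the HSP70 chaperone of the ER lumen that also holds the 3 sensors inactive. Its counts were 30174, 20939 and 18166 after I/R against 8495, 9600 and 8294 after sham surgery. Every I/R library was above every sham library, and the level rose from 232 ± 12.4 to 547 ± 106 CPM, by 1.24 ± 0.15 (SE) on the log2 scale (edgeR, adjusted p = 0.000991).

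Hsp90b1 (chromosome 10, 85033710 to 85049439) encodes GRP94, the HSP90 chaperone of the ER. It had 14507, 11875 and 11619 counts after I/R against 8391, 9719 and 8648 after sham surgery. The I/R libraries, at 291 to 319 CPM, were above the sham libraries, at 215 to 251 CPM. The rise was 0.36 ± 0.10 (SE) on the log2 scale (edgeR, adjusted p = 0.0231). This rise was not called without I/R replicate 2 (adjusted p of 0.0692), and leaving out sham replicate 1, 2 or 3 also ended the call (0.116, 0.0793 and 0.0582), and the adjusted p ran from 0.00126 to 0.171 over all alternatives. Of its transcript stretches, 9.75% were shared with other genes, the non-coding genes 1810014B01Rik, Gm25745 and Gm15344.

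Pdia4 (chromosome 6, 44901955 to 44919149) encodes a protein disulfide isomerase. Its counts were 2891, 1721 and 1763 after I/R against 1267, 1650 and 1409 after sham surgery. The I/R libraries were above the sham libraries by a small margin, with I/R replicate 2 at 43.1 CPM and sham replicate 3 at 41.0 CPM, and I/R replicate 1 stood highest at 63.5 CPM. The log2 fold change was 0.40 with a 95% interval from 0.01 to 0.80 (adjusted p of 0.0927). It was 0.20 without I/R replicate 1. Pdia4 passed with library size alone (0.67, adjusted p of 0.0232) and on log2 of FPKM plus 1 (0.62, limma adjusted p of 0.0385).

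Herpud1 (chromosome 8, 92165344 to 92174275) encodes a membrane protein of ER-associated degradation (ERAD), the path that returns misfolded proteins to the cytosol for the proteasome. It had 3342, 3168 and 2643 counts after I/R against 1949, 2110 and 1647 after sham surgery. The groups did not overlap, and the level rose from 49.9 ± 2.02 to 72.9 ± 6.59 CPM, by 0.55 ± 0.09 (SE) on the log2 scale (edgeR, adjusted p = 0.00311). It was the 1 gene among the 8 that rose whose highest library was not I/R replicate 1. That library was highest in 7 of the 8 (87.5%), and in 73.1% of all genes that rose.

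**Figure D3:**
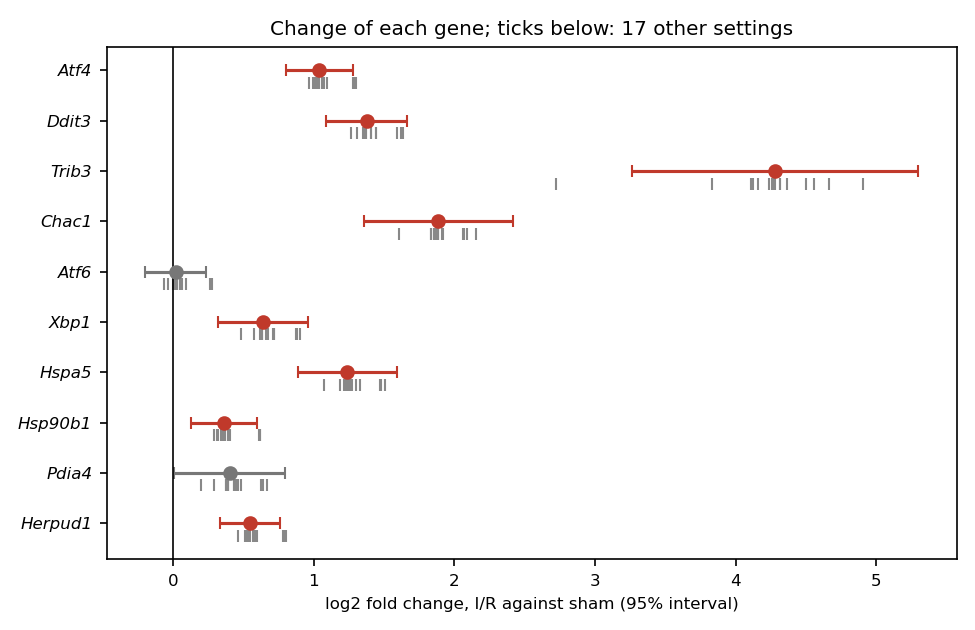
Log2 fold change, I/R against sham, of the 10 UPR genes with its 95% interval (red, rose; grey, did not pass), and below each point the values under 17 other settings as ticks. The interval of Atf6 spans 0, that of Pdia4 begins just above 0, and Trib3 lies far to the right of the others at 4.28.

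Levels of different genes can be compared only per length. In deposited FPKM (reads per gene length and counted library, the authors' values), the chaperones were highest in sham hippocampus, with Hspa5 at 149 ± 7.56 and Hsp90b1 at 133 ± 10.2 FPKM, whose libraries overlapped. Atf4 followed at 60.8 ± 3.78, Xbp1 at 49.1 ± 4.24 and Herpud1 at 38.9 ± 1.37 FPKM. Ddit3 at 26.4 ± 2.21 and Pdia4 at 25.5 ± 3.12 FPKM overlapped, and Atf6 at 19.3 ± 1.47 FPKM was below both. Chac1, at 4.46 ± 0.0851 FPKM, and Trib3, at 0.363 ± 0.15 FPKM, were lowest. After I/R the order began with Hspa5 at 424 ± 102 FPKM, clear of Hsp90b1 at 204 ± 19.6 FPKM, and Ddit3 at 82.1 ± 14.8 FPKM overlapped Xbp1 at 91.9 ± 21.1 FPKM. Chac1, at 19.8 ± 7.47 FPKM, overlapped Atf6, at 23.4 ± 1.61 FPKM. The order depends on the length used: the FPKM of Hspa5 implies 1418 bases where the table lists a length of 3672, and per kilobase of listed length Hspa5 at 57.7 ± 2.92, Atf4 at 60.8 ± 3.78 and Hsp90b1 at 66.6 ± 5.12 were neighbours that overlapped in sham.

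**Figure D4:**
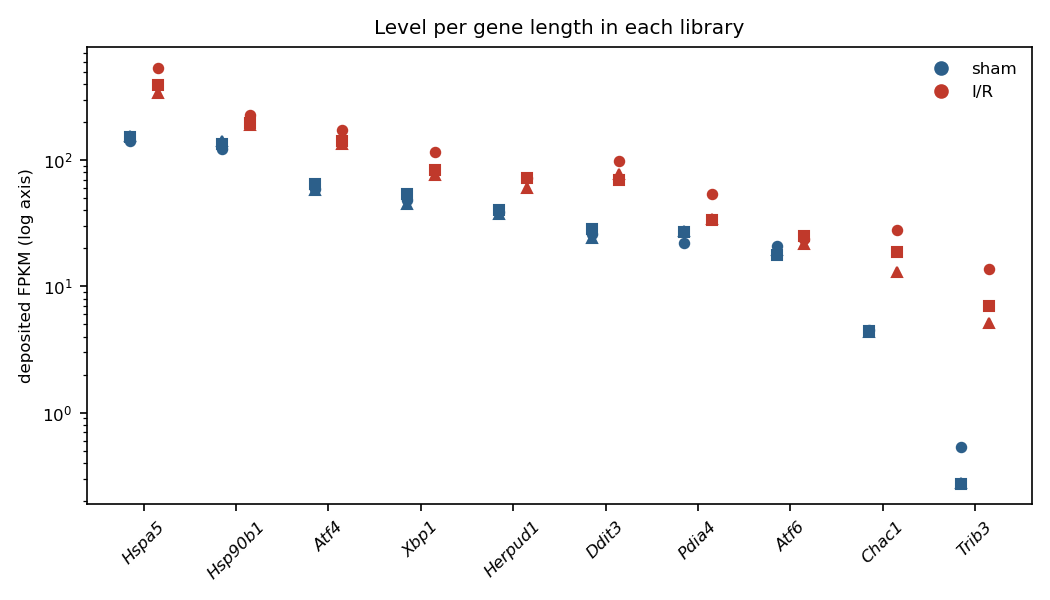
Deposited FPKM (log axis) of the 10 UPR genes in each sham (blue) and I/R (red) library, ordered by the sham mean, with the symbol shape giving the replicate. Sham values span from 0.275 FPKM for Trib3 to 156 FPKM for Hspa5.

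The other genes of the pathway were taken from 5 lists with 114 genes tested, of which 65 rose and 9 fell. By the same rule 21.8% of all genes tested rose and 19.9% fell, and the count of each list is read beside these shares. The first list held the sensors and the factors next to them, where 8 of 15 genes tested rose, 3 fell and 4 did not pass, with a median log2 fold change of 0.61. Of the sensors, Ern1 had 1412, 774 and 867 counts after I/R against 593, 648 and 557 after sham surgery, and rose by 0.61 ± 0.18 SE in log2 (adjusted p = 0.0256). Its libraries did not overlap between groups, but the rise was not called without sham replicate 1 (adjusted p of 0.0863), 2 (0.0812) or 3 (0.0725), and its rise was 0.38 when I/R replicate 1 was left out. Eif2ak3, which encodes PERK, did not pass at 0.21 (95% interval -0.01 to 0.43, adjusted p of 0.119). Eif2ak3 rose with library size alone (adjusted p of 0.0118). It also rose on log2 of FPKM plus 1 (limma adjusted p of 0.0166) and plus 0.1 (0.027). Ern2, the IRE1 gene of mucosal epithelium, had 1 to 14 counts per library and was not tested.

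Ppp1r15a, Ppp1r15b, Eif2s1 and Nfe2l2 of the same list rose, and Traf2 did not pass. Ppp1r15a encodes GADD34, which brings a phosphatase to eIF2α, and had 3593, 2300 and 1938 counts after I/R against 618, 703 and 575 after sham surgery. All its I/R libraries were higher, and the rise was 1.89 ± 0.18 (SE) on the log2 scale (adjusted p = 0.000423). Its relative Ppp1r15b, made without stress, rose by 0.62 ± 0.09 SE (adjusted p = 0.00172) and Eif2s1, which encodes eIF2α itself, by 0.88 ± 0.08 SE (adjusted p = 0.000363). Nfe2l2, which encodes NRF2, a factor of the antioxidant response that PERK can phosphorylate, rose by 1.17 ± 0.17 SE (adjusted p = 0.00188). Traf2, an adaptor of IRE1, did not pass at 0.31 ± 0.12 SE (adjusted p = 0.0742). Traf2 rose with library size alone (adjusted p of 0.0116). It also rose on log2 of FPKM plus 1 (limma adjusted p of 0.0142) and plus 0.1 (0.02).

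Under TMM scaling Atf6b and the proteases that cut ATF6 were lower after I/R. Atf6b, the relative of Atf6, had 3757, 3051 and 3739 counts after I/R against 4313, 5110 and 4413 after sham surgery. Its CPM was lower in every I/R library, at 84.1 ± 8.70 against 121 ± 9.63, which is -0.53 ± 0.10 (SE) on the log2 scale (adjusted p = 0.00552). Mbtps1 and Mbtps2, which encode these proteases, had log2 fold changes of -0.37 ± 0.08 SE (adjusted p = 0.00905) and -0.35 ± 0.09 SE (adjusted p = 0.0155). None of these 3 fell with library size alone, at adjusted p of 0.0583, 0.332 and 0.466 in the same order, nor on FPKM. Mbtps2 was also not called without sham replicate 1 (adjusted p of 0.0571) or 3 (0.0699). Both proteases also cut SREBP, the factor of the cholesterol pathway.

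The CREB3 family are membrane factors cut in the same way as ATF6. Creb3l1 rose from 4.11 ± 0.759 to 9.95 ± 0.462 CPM, a change of 1.28 ± 0.18 (SE) on the log2 scale (adjusted p = 0.00152). Creb3 rose by 0.74 ± 0.09 SE (adjusted p = 0.000876) and Creb3l2 by 0.63 ± 0.15 SE (adjusted p = 0.0115), the latter not called without sham replicate 2 (adjusted p of 0.0528). The 2 other members had few counts and did not pass. Creb3l4 had 8 to 27 counts per library and a difference of 0.51 ± 0.51 (SE) on the log2 scale (adjusted p = 0.463). Creb3l3 had 6, 38 and 15 counts after I/R against 53, 36 and 27 after sham surgery. Its difference of -1.06 ± 0.64 (SE) on the log2 scale (adjusted p = 0.219) was -2.02 and called without I/R replicate 2 (adjusted p of 0.0397).

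Targets of ATF4 and the integrated stress response had the highest median of the 5 lists. Of 28 genes tested, 23 rose, 3 fell and 2 did not pass (Wars at 0.22 and Ddit4 at -0.11, both named after their values were seen), with a median log2 fold change of 0.91. The shares over all genes tested were 21.8% rising and 19.9% falling. Gdf15, which encodes a stress hormone, went from 6, 8 and 10 counts in sham to 1279, 582 and 557 in I/R, a rise of 6.46 ± 0.41 (SE) on the log2 scale (adjusted p = 0.000212). Atf3, a transcription factor of many stress responses, had 6928, 2542 and 2786 counts after I/R against 60, 32 and 34 after sham surgery, a rise of 6.43 ± 0.45 (SE) on the log2 scale (adjusted p = 0.000216). Fgf21, a hormone of fasting, had 74, 102 and 86 counts after I/R against 0, 0 and 4 after sham surgery. Its log2 fold change of 5.77 ± 0.80 SE (adjusted p = 0.00148) rests on those 4 counts of sham replicate 3: it was 9.43 without that library and 5.17 without sham replicate 2. Gdf15 and Fgf21 passed the count filter through their I/R counts. Where at least 10 counts were required in every library, 21 of 26 genes of the list rose and 3 fell.

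The 3 genes of the list that fell were enzymes and a receptor. Pck2, the mitochondrial enzyme of gluconeogenesis, was at -0.55 ± 0.11 (SE) on the log2 scale (adjusted p = 0.00504). Gpt2, an alanine aminotransferase of mitochondria, was at -0.51 ± 0.10 SE (adjusted p = 0.00664) and Vldlr, a lipoprotein and reelin receptor, at -0.38 ± 0.09 SE (adjusted p = 0.0149). None of the 3 fell with library size alone, at adjusted p of 0.0933, 0.0641 and 0.250 in the same order, and Vldlr was also not called without sham replicate 1 (0.0610) or 3 (0.0512). The composite site was in 10 of the 22 tested genes of the list with a promoter. Of these 10, 8 rose (Asns, Nupr1, Atf3, Slc7a11, Aars, Gars, Iars and Fgf21) and 2 fell (Vldlr and Pck2). In the whole list 23 of 28 rose and 3 fell, whether or not the site was present. Of all 335 genes tested with the site in the promoter, 26.9% rose and 21.8% fell. Fgf21 passed the count filter through its I/R counts. The count of 8 is therefore not read as a result about the site. Asns, Nupr1, Slc7a11, Aars, Gars and Iars are named for the site, after their values were seen.

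Of the other ER chaperones and folding enzymes, 12 of 26 rose, 2 fell and 12 did not pass, with a median log2 fold change of 0.31. Over all genes tested, 21.8% rose and 19.9% fell. Pdia5, a disulfide isomerase, rose by 1.80 ± 0.37 SE (adjusted p = 0.00677), with 334, 129 and 135 counts after I/R against 56, 62 and 36 after sham surgery. P4hb, the main disulfide isomerase, rose from 112 ± 8.83 to 218 ± 51.0 CPM, a rise of 0.96 ± 0.16 (SE) on the log2 scale (adjusted p = 0.0031). Creld2, an ER stress gene of disulfide exchange, rose by 1.09 ± 0.29 SE (adjusted p = 0.0185) and was not called without sham replicate 1 (0.0713) or 3 (0.0590). Genes with an ERSE were found on either side of the threshold: Pdia6, Dnajc3 and Creld2 rose, Calr and Canx did not pass at 0.32 and 0.11, and Ero1lb fell. With library size alone Calr (adjusted p of 0.0332) and Canx (0.0144) rose. Canx also rose on log2 of FPKM plus 1 (limma adjusted p of 0.017) and plus 0.1 (0.0308). The rise of Pdia6 was not called without sham replicate 1 (adjusted p of 0.108), 2 (0.059) or 3 (0.0801). That of Dnajc3 was not called without I/R replicate 2 (adjusted p of 0.123) or 3 (0.0609), without sham replicate 1 (0.156) or 2 (0.133), or without a count filter (0.0801). Calr and Canx, the calreticulin and calnexin genes that hold glycoproteins during folding, and Pdia6 and Dnajc3 are named here after their values were seen.

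The 2 genes that fell were Ero1lb, an oxidase that drives disulfide formation in secretory cells, at -0.67 ± 0.23 SE (adjusted p = 0.0459), and Creld1, a membrane relative of Creld2, at -0.50 ± 0.10 SE (adjusted p = 0.00566). Ero1lb had 106 to 235 counts per library and was called in 6 of 17 alternatives, with an adjusted p of 0.0127 to 0.207. It was not called without I/R replicate 2 (adjusted p of 0.121) or 3 (0.0732), or without sham replicate 1 (0.137) or 2 (0.145). Neither gene fell with library size alone (adjusted p of 0.199 for Ero1lb and 0.114 for Creld1). The count of 12 rises in the list depended on the libraries, being 6 when sham replicate 1 was left out and 7 when sham replicate 2 was. In the same order, rises over all genes tested numbered 2981 of 19138 and 2904 of 19153. Scaled by library size alone, 19 rose and 0 fell, but that scale also moved rises over all 18569 genes tested from 4054 to 6334.

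ERAD genes had the lowest median of the 5 lists. Of 22 tested, 7 rose, 1 fell and 14 did not pass, with a median log2 fold change of 0.19. Among all genes tested 21.8% rose and 19.9% fell. The largest rises were those of Edem1, which marks misfolded glycoproteins, at 0.94 ± 0.15 SE (adjusted p = 0.00217), of Nploc4, a partner of the extracting ATPase, at 0.73 ± 0.15 SE (adjusted p = 0.00628), and of Ubxn4, which ties that ATPase to the ER, at 0.58 ± 0.09 SE (adjusted p = 0.00225). Sel1l, the adaptor of the main ubiquitin ligase, had 7631, 6632 and 6805 counts after I/R against 8645, 9304 and 7487 after sham surgery, a difference of -0.41 ± 0.08 (SE) on the log2 scale (adjusted p = 0.00582). It did not fall with library size alone (adjusted p of 0.154). Syvn1 and Derl3, the ERAD genes with an ERSE in the promoter, did not pass at 0.16 and 0.12, and are named here after their values were seen. Syvn1 rose with library size alone (adjusted p of 0.0321). The count of 7 rises was 4 without I/R replicate 2, sham replicate 1 or sham replicate 2, 3 without sham replicate 3 and 15 with library size alone. Rises over all genes tested numbered 4054 of 18569 in the main fit and 2935 of 19246 without sham replicate 3. With library size alone they numbered 6334 of 18569. The ERAD count is therefore not read as a result about the list.

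Of the genes that carry proteins into and out of the ER, 15 of 23 rose, 0 fell and 8 did not pass, with a median log2 fold change of 0.38. For all genes tested the shares were 21.8% rising and 19.9% falling. The count of 15 rises was 12, 14 and 10 without sham replicate 1, 2 and 3, and 21 with library size alone. In the same order, rises over all genes tested numbered 2981 of 19138, 2904 of 19153, 2935 of 19246 and 6334 of 18569. Kdelr3, a receptor that returns escaped ER proteins from the Golgi, had 250, 143 and 96 counts after I/R against 21, 12 and 11 after sham surgery, all I/R libraries being higher. Its log2 fold change was 3.30 ± 0.41 SE (adjusted p = 0.00102). Sec61a1 and Sec61g encode subunits of the channel through which proteins enter the ER, and rose by 0.97 ± 0.14 SE (adjusted p = 0.00189) and 0.86 ± 0.18 SE (adjusted p = 0.00788).

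**Figure D5:**
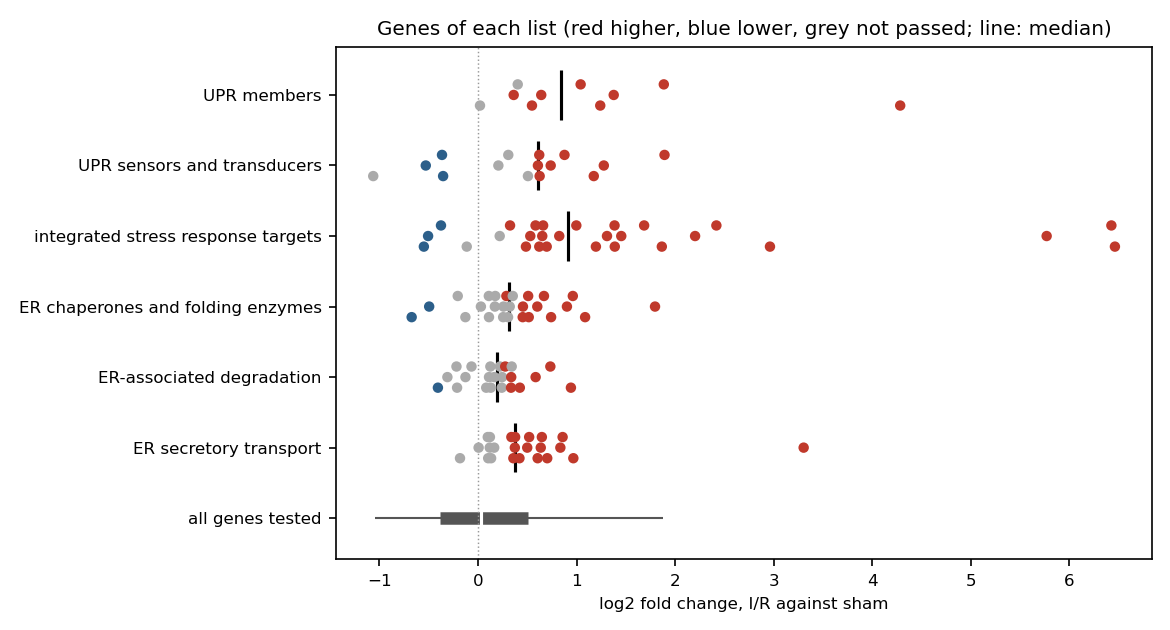
Log2 fold change, I/R against sham, of each tested gene in the 10 UPR genes and the 5 pathway lists (red, rose; blue, fell; grey, did not pass; black line, median), with all genes tested below (thick bar, middle 50%; thin line, middle 90%). Medians run from 0.19 for ERAD genes to 0.91 for integrated stress response targets, and that of all genes tested was 0.03.

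Cell type markers also changed, in both directions, and their part in the changes of the UPR genes was not tested. In bulk tissue, fewer cells of a type and less RNA per cell cannot be told apart. Of the neuron markers 6 of 7 fell, their summed level being 2024 to 3926 CPM in I/R and 6841 to 7173 CPM in sham, and of the hippocampal neuron genes 7 of 9 fell, with all 9 present in every library. Endothelial markers rose in 4 of 5 genes (291 to 495 against 175 to 177 CPM). Fibroblast and meninges markers rose in 4 of 6 (190 to 289 against 145 to 172 CPM). Of all genes tested, 21.8% rose and 19.9% fell. Monocyte and macrophage markers summed to 13.03 to 46.2 CPM in I/R against 3.69 to 4.92 CPM in sham. Neutrophil markers summed to 6.33 to 32.3 against 0.233 to 1.56 CPM. Apart from Lyz2, the tested genes of these immune lists passed the count filter through their I/R counts. Their rise was thus largely fixed in advance, and no count of rises is given. Single genes of the neutrophil list differed. Ly6g was at 0 in 5 of 6 libraries, with 1 count in I/R replicate 1. S100a8 had 671, 143 and 118 counts in I/R against 20, 7 and 5 in sham. The microglia marker Itgam had 0 counts in every library, so a count of 0 here does not show that a cell type is absent. Of the plasma cell markers, which were listed because these cells have a large ER, Jchain, Mzb1 and Tnfrsf17 had 22 counts or fewer in every library, and Sdc1, which other cells also express, rose. Astrocyte markers rose in 2 and fell in 3 of 6 genes, those of microglia rose in 2 and fell in 2 of 5 tested, and oligodendrocyte markers rose in 0 and fell in 3 of 6.

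The libraries held 37493042 to 44788547 counts. TMM factors lay between 1.06 and 1.15 for I/R and between 0.908 and 0.920 for sham. The choroid plexus markers, of which 0 of 7 passed, ran from 33.7 to 3618 CPM in I/R and from 36.8 to 4423 CPM in sham in sum, I/R replicate 3 and sham replicate 1 being the low ones. With only the other 4 libraries, a setting chosen after these levels were seen, 7 of the 10 UPR genes rose and Hsp90b1 was the gene lost (adjusted p of 0.171). In that fit 50 of the 114 genes of the pathway lists were called, against 74 with all libraries, and 5255 genes in all against 7756.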

How the data were processed

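Total RNA from hippocampus was sequenced in 6 libraries (bulk RNA-seq). The authors aligned reads with TopHat 2 to an Ensembl genome and counted them per gene with HTSeq; the submitters' processing notes also name Bowtie 0.12.2 and mm8. The deposited counts are raw, and the deposited FPKM divide them by a gene length and the counted reads of the library. Of 41386 genes (4 split lines were rejoined), 40303 have identifiers of the BALB/cJ strain, although the mice are C57BL/6J, so reads were assigned through another strain's annotation. Strand use in counting and the treatment of reads that fit several places were not given in the sources used here. The table's columns of the authors' own p-values and calls were not used.

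Groups came from the sample titles. Genes were kept with filterByExpr in edgeR 4.0.16 (R 4.3.3), scaled by TMM and tested for I/R against sham with robust quasi-likelihood F-tests without covariates, in a fit over all 18569 genes. The SE is the absolute log2 fold change over the square root of F. With 3 libraries per group, no exact permutation p under 0.1 is possible, so none is printed. Alternatives used DESeq2 1.42.0, limma 3.58.1, other scalings and filters, the replicate number as a block, and each library left out. Only the main edgeR fit was tested on simulated counts. It called 72.4% of the tested genes that had been changed in the right direction, and 0 in the wrong one. The 10 genes, the pathway lists and the markers were chosen with earlier results of these data known, and the fold threshold of 1.2 is that of the study. Named were the 10 genes, all genes of the sensor list, and from each other list the 3 genes with the largest change in each direction among those called. Other genes of the lists, named after their values were seen, are marked as such where they appear. Not found by name in the table were Phgdh, Fkbp14, Ube2j2, March6 and Sec61b.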

Additional observations from a re-analysis of the deposited data

How the results depend on the processing

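With a fold change over 2 instead of 1.2, a stricter rule, 2760 genes in all, 5 of the 10 UPR genes and 19 genes of the pathway lists were called. The other alternatives gave 7 to 10 of the 10 UPR genes. The median log2 fold change of the 10 genes, 0.84, became 1.10 with library size alone, 1.08 on log2 of FPKM plus 1 and 1.09 on log2 of FPKM plus 0.1, none of which corrects for composition. With library size alone 75.8% of all calls were rises, against 52.3% with TMM. In that setting 0 genes of the pathway lists fell, against 2027 of 18569 genes in all. The log2 fold change of Atf6 was 0.27 with library size alone, 0.26 on log2 of FPKM plus 1 and 0.27 on log2 of FPKM plus 0.1. It was -0.0036 without a count filter and ran from -0.066 to 0.063 with 1 library left out.

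The sample titles do not say whether same-numbered libraries were paired. Deviations of same-numbered libraries from their group means correlated at -0.14, 0.04 and -0.24, and those of differently numbered ones at -0.18 to 0.33. Because deviations within a group of 3 sum to 0, these correlations cannot decide it. With the replicate number as a block, 6332 genes in all, 7 of the 10 UPR genes and 63 genes of the pathway lists were called. The gene lost was Hsp90b1 (edgeR adjusted p of 0.0730), and the median was 0.83. In that fit 8 of the chaperones and 4 of the ERAD genes rose, and 3274 of 18569 genes in all.

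Counts per gene carry no splice forms. Pdia4 and Hsp90b1, with log2 fold changes of 0.40 (SE 0.17) and 0.36 (SE 0.10), lay on either side of the threshold.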

Other observations

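Ratios of counts within a library do not depend on scaling. The following pairs were chosen after the values were seen, so they are given as a description without a test. Hspa5 relative to Hsp90b1 was 2.08, 1.76 and 1.56 in I/R replicates 1 to 3 and 1.01, 0.988 and 0.959 in sham replicates 1 to 3, and Hspa5 relative to Pdia4 was 11.0 ± 1.04 against 6.14 ± 0.493 (SD, n = 3 each). Both ratios were higher in each I/R library than in any sham library. Ddit3 relative to Atf4 was 0.260 ± 0.0247 in I/R and 0.206 ± 0.00639 in sham, and Trib3 relative to Ddit3 was 0.131 ± 0.0468 and 0.0178 ± 0.0075, again without overlap. Atf6 relative to Atf6b was 1.42 ± 0.245 in I/R and 0.969 ± 0.142 in sham. The ratios Chac1 to Ddit3 and Hspa5 to Ddit3 overlapped between groups.

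The composite site in a promoter, described above for Trib3, Chac1 and Herpud1, was also counted across the genes outside the pathway lists. Of 318 such genes with the site, 24.5% rose and 22.3% fell, and of 11462 without it, 22.6% rose and 21.6% fell. Of 9 genes outside the lists with an ERSE, 1 rose and 2 fell.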
